A study of Mus musculus with 112 samples.

Results

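Muscle biopsies and whole muscles of mice carry a varying amount of fat tissue, and the control limbs described here were sorted by how much of it their RNA showed. Adipoq encodes adiponectin, a hormone that adipocytes secrete. Adipoq was ranked by its CPM, the count divided by the library's total and scaled to counts per 1000000, in the control limbs of 46 mice. The 12 limbs with the highest level are called adipocyte-rich and the 12 with the lowest adipocyte-poor, which makes 24 of the 112 libraries sequenced. A further 22 control limbs lay between the classes. The classes were therefore chosen on a measured value, and Adipoq itself was left out of the fits between the control limbs of these classes.

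RNA came from the gastrocnemius, a calf muscle, of 56 mice of the Diversity Outbred stock, whose animals all differ in genotype. The mice were 16 weeks old, 28 females and 28 males, and a single hindlimb of each had been in a cast for 3 weeks. Every cast was on the right limb and every control limb was a left one, so side and treatment cannot be told apart. All mice of both classes carried a cast on the other limb, and neither class is an untreated group. The rich class held 7 females and 5 males, and the poor class 4 females and 8 males. Animal numbers fall in the blocks 1 to 20, 21 to 40 and 41 to 59. In these blocks the rich class held 6, 5 and 1 limbs, and the poor class 5, 2 and 5.

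Adipocytes store triglyceride in a lipid droplet coated by perilipins, make fatty acids from glucose in response to insulin, and release them again when lipases cut the stored fat. They develop from mesenchymal precursors under the transcription factors PPARγ and C/EBPα. In skeletal muscle they lie between fibres, where they arise from fibro-adipogenic progenitors, and in the fat that wraps a muscle and its nerves and vessels. In a library made from a whole piece of muscle, fewer adipocytes and less RNA per adipocyte cannot be told apart.

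The ranking rule left out 10 mice, and in 7 of them a library held Acta1, the actin of skeletal muscle fibres, under 50% of its median over all libraries. On 150 genes chosen without the mouse compared, the limbs of the same mouse matched best in 54 of 56 mice, among them all 24 mice of the classes. The exceptions, mice 15 and 16, matched each other's limbs and lie between the classes. Total counts ran from 2555619 to 4683296 in rich limbs and from 3169641 to 6070437 in poor limbs. None of 5 measures of the make-up passed a test between the classes: sex gave p = 0.414 by Fisher's exact test, the animal numbers 41 to 59 against lower ones p = 0.155 by the same test, and permutation tests gave p = 0.287 for the total count, 0.607 for the share of mitochondrial transcripts and 0.953 for Acta1 (two-sided, lowest Benjamini-Hochberg adjusted p = 0.69).

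Adipoq spanned 0.191 to 210 CPM over the 46 limbs. In the rich class the lowest limb held 23.1, the median limb 58.9 and the highest 210 CPM. In the poor class the lowest held 0.191, which was 1 read, the median 1.61 and the highest 3.35 CPM. The nearest limbs outside the classes were at 22.3 CPM, just under the lowest rich limb, and at 4.08 CPM, just over the highest poor limb, so the limits cut a continuous range. Plin1, the perilipin that coats the lipid droplet of adipocytes and was not used for the ranking, separated the same classes: it ran from 13.5 through a median of 31.5 to 372 CPM in rich limbs and from 0 through 1.13 to 2.32 CPM in poor limbs. The limbs between the classes held 1.05 to 16.9 CPM of Plin1, with a median of 6.62. Of the markers named for the label, Adipoq set the classes. Plin1 was read in the same libraries and varied with Adipoq there, so its separation of the classes is a description.

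**Figure D1:**
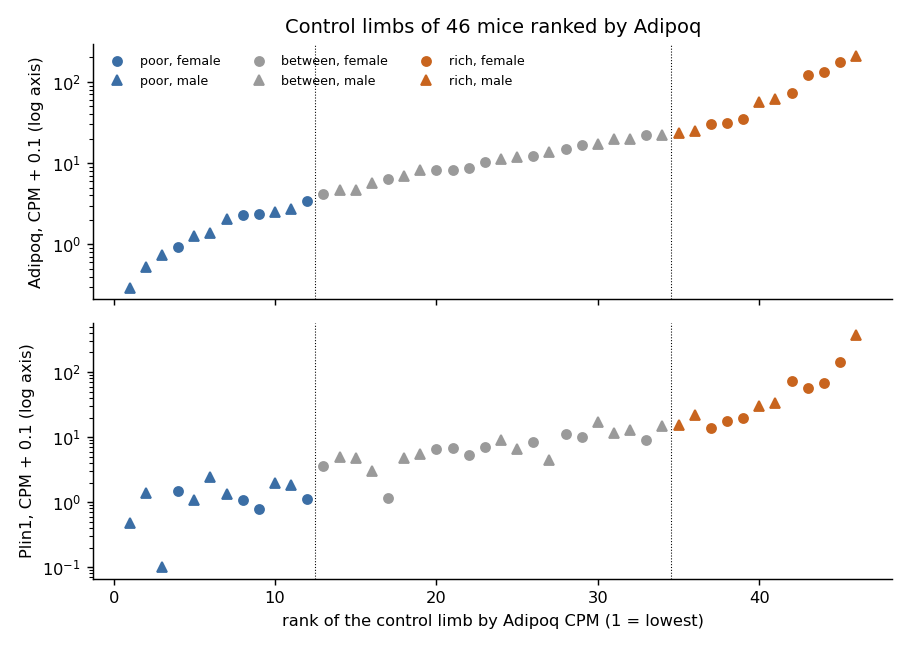
Adipoq (top) and Plin1 (bottom) in the control limbs of 46 mice, as CPM plus 0.1 on a log axis, ordered by Adipoq. Circles are females and triangles males, and the dotted lines bound the 12 poor and the 12 rich limbs, which do not overlap in Plin1 (highest poor limb 2.32 CPM, lowest rich limb 13.5 CPM).

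Between the classes, 112 of 10555 genes passed edgeR's quasi-likelihood test at an adjusted p of at most 0.05, with the female or male table as a covariate, which is 1.06% of the genes. Of these, 102 were higher in rich limbs (0.966% of the genes tested) and 10 were lower (0.0947%). Before adjustment 1361 (12.9%) reached p = 0.05 or less. The median log2 fold change of all genes was 0.005, and 51.1% of them had a positive one. Because Adipoq set the classes in the same libraries, these tests say which genes vary with Adipoq, and for genes of adipocytes the direction is a description. The 8 lists of adipocyte genes together named 149 genes, of which 101 had enough counts to be tested; by edgeR 32 of these 101 were higher and 0 lower, and the median log2 fold change of the 101 was 0.383. Of the 32, 29 had an adjusted p by DESeq2 and all 29 passed, 17 passed by limma voom, 4 in females alone and 17 in males alone. DESeq2 also called Bscl2, Aqp7, Mgll, Pgd, Ces1d, Chpt1 and Slc2a4 of these lists. Slc2a4 was lower in rich limbs. In 13 of the 10555 genes (0.123%) every rich limb lay above every poor limb, and in 0 every rich limb lay below; 9 of the 13 were in an adipocyte list. A list's tested genes had passed a filter on counts in these same limbs and are not all of its members. That filter can be met by the limbs of 1 class. Genes low in every poor limb, such as Plin1 and Prkar2b, passed it through the rich limbs. Their calls and their lack of overlap are therefore a description.

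The count of calls leaned on a single library. Without the rich limb of male 13, which held the highest Adipoq of all, 58 genes passed instead of 112, and 56 of them were among the 112. Of the 32 adipocyte genes, 25 were still called without it, and Acaca, Acly, Angptl4, Dgat1, Fabp5, G6pdx and Pparg were not. Leaving out any 1 of 12 other limbs ended the call of Fabp5, and no other limb ended the call of another of the 32.

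The genes named here as most like Adipoq in their pattern were in the adipocyte lists, except Ifi27l2a and Cdo1. The cells that the RNA of these genes came from were not measured. Over the 46 control limbs and 9114 genes with a mean of at least 5 CPM, the Spearman correlation with Adipoq was highest for Cidec (0.963), Cfd (0.962) and Plin1 (0.960), followed by Cyp2e1 (0.893), Ifi27l2a (0.886), Cebpa (0.881), Cdo1 (0.880), Prkar2b (0.876), Pck1 (0.876) and Scd1 (0.833). These correlations include the limbs that set the classes and are given as a description. Cidec, a protein that fuses small lipid droplets into a large one, ran from 20.1 through 59.5 to 308 CPM in rich limbs and from 0.382 through 2.64 to 3.44 CPM in poor limbs. Cfd, the serum protease adipsin that adipocytes secrete and that starts the alternative complement pathway, ran from 75.3 through 194 to 889 CPM and from 2.67 through 12.4 to 22.8 CPM. Neither gene had a single overlapping limb between the classes, and their log2 fold changes were 5.15 ± 0.47 and 4.36 ± 0.40 (SE, n = 12 limbs each).

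The bases before the transcription starts of 3 of these genes are shown because the genes vary together and because C/EBPα, which is among them, binds motifs of the kind searched. Each stretch is the 250 bases before a RefSeq start in build GRCm38.p6, in the direction of the gene: Adipoq at chr16:23146286-23146535 on the plus strand, Plin1 at chr7:79732777-79733026 on the minus strand, and 1 of 2 starts of Cidec at chr6:113434765-113435014 on the minus strand. Capitals mark matches to TTGCNNAA, a C/EBP-type motif searched on both strands.
Adipoq: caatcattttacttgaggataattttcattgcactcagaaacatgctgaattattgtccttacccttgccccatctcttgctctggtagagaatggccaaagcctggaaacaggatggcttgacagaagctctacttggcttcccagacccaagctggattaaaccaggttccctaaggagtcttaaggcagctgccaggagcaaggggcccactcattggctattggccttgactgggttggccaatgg
Plin1: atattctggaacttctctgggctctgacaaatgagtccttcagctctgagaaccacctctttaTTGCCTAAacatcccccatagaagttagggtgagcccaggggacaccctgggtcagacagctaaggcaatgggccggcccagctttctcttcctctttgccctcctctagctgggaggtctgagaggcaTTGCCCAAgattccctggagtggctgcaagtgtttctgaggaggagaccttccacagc
Cidec: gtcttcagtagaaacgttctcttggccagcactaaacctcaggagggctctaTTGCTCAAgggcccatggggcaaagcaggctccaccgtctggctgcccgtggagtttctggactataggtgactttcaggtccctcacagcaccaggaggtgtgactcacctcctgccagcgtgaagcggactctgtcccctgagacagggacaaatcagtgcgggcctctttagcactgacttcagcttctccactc

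The matches of Plin1 begin 187 and 58 bases before the start, and the match of Cidec begins 198 bases before it. The window at the other start of Cidec and those of Adipoq, Cfd, Cebpa, Fasn and Pck1 hold no such letters. Of the 102 genes higher in rich limbs, 74 had a promoter in the RefSeq table, and 16 of these (21.6%) held the motif, against 8.96% of the 7992 tested genes with a promoter and 10.8% of all 27025. The PPAR hexamer AGGTCA, bound by nuclear receptors of the PPARγ kind, occurred in 7 of the 74 (9.46%), against 12.7% of the tested genes. The direct repeat of that hexamer with 1 base between, which overlaps it, occurred in 0 of the 74 against 0.025% of the tested genes, and the sterol element TCACNCCAC in 0 against 1.2%. A match is a description of the letters in these windows.

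Among the adipokines, the hormones and secreted proteins of fat tissue, 4 of 14 listed genes were tested and 2 were higher, with a median log2 fold change of 1.43. Besides Cfd this was Angptl4, an inhibitor of lipoprotein lipase, at 4.31 through 11.1 to 83.3 CPM in rich limbs and 0.681 through 3.63 to 10.9 CPM in poor limbs. Here 6 of 12 rich limbs exceeded every poor limb, and the log2 fold change was 2.37 ± 0.46 (SE). Without male 13 Angptl4 did not pass (1.84, edgeR adjusted p = 0.0658). Agt, the precursor of angiotensin, did not pass, with medians of 7.83 CPM in rich and 8.99 CPM in poor limbs. Several adipokines were too low for the filter but separated most limbs. Lep, the satiety hormone leptin, ran from 0.509 through 8.99 to 35.1 CPM in rich limbs, was at 0 in 6 of 12 poor limbs and reached 1.08 CPM in the highest of them. Retn, resistin, had a median of 16.0 CPM in rich limbs and 0.221 CPM in poor limbs, where 5 limbs were at 0, and 11 of 12 rich limbs exceeded every poor one. Rbp4, the carrier of retinol, Nnat, a small membrane protein of adipocytes and neurons, and Nrg4, a growth factor of the neuregulin family, exceeded every poor limb in 10, 10 and 11 of 12 rich limbs.

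Of the lipid droplet genes, 11 of 15 were tested, 4 were higher and 0 lower, with a median of 0.54. Plin1 showed a log2 fold change of 5.97 ± 0.61 and Cidec the value above. The other called genes, the caveolins Cav1 (0.54 ± 0.11) and Cav2 (0.87 ± 0.13), form the membrane pits that are dense on adipocytes and on vessels. The remaining perilipins did not pass. Plin2, found on the droplets of most cells, had medians of 33.1 and 24.4 CPM in rich and poor limbs and Plin5, the perilipin of muscle and heart, 22.0 and 30.4 CPM. Plin4, which is also abundant in muscle, had almost equal medians of 315 and 308 CPM, and its limbs overlapped widely.

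The lipolysis list had 11 of 16 genes tested, 3 higher and 0 lower, with a median of 0.82. Prkar2b, the regulatory subunit of protein kinase A that adipocytes use, ran from 2.90 through 15.6 to 203 CPM in rich limbs and from 0 through 0.989 to 1.97 CPM in poor limbs, without overlap and with a log2 fold change of 5.14 ± 0.64 (3.86 without male 13). Lipe, hormone-sensitive lipase, had medians of 62.3 and 23.8 CPM (log2 fold change 2.11 ± 0.35; 1.39 without male 13), and 11 of 12 rich limbs exceeded every poor limb. Pde3b, the phosphodiesterase through which insulin restrains lipolysis, had medians of 8.07 and 2.68 CPM (2.43 ± 0.45; 1.51 without male 13). The lipase of the first step, Pnpla2, was measured at medians of 318 CPM in rich and 341 CPM in poor limbs and did not pass. Mgll, the lipase of the last step, and G0s2, an inhibitor of Pnpla2, did not pass by edgeR either, while DESeq2 called Mgll. Adrb3, the β-adrenergic receptor of adipocytes, was too low to be tested: it was at 0 in 8 of 12 poor limbs and had a median of 5.44 CPM in rich limbs.

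Of the genes of lipid synthesis 27 of 31 were tested, 13 were higher and 0 lower by edgeR, with a median of 1.18. By DESeq2 11 passed and by limma voom 3, Fasn, Pck1 and Scd1. Pck1, which makes glycerol phosphate for triglyceride in fat cells, ran from 7.64 through 35.5 to 617 CPM in rich limbs and from 0 through 0.690 to 6.14 CPM in poor limbs, without overlap. Its log2 fold change of 6.18 ± 0.77 was the largest of all genes called, and it was 7.04 without the poor limb of female 5. Scd1, which desaturates fatty acids, ran from 116 through 361 to 9756 CPM and from 15.5 through 34.0 to 106 CPM, again without overlap (4.69 ± 0.71). Fasn, fatty acid synthase, ran from 22.9 through 149 to 5148 CPM and from 10.5 through 21.1 to 32.2 CPM (4.75 ± 0.76), and 11 of 12 rich limbs exceeded every poor limb. Thrsp, a lipogenic protein that responds to thyroid hormone, and Slc25a1, which carries citrate out of mitochondria for fatty acid synthesis, had log2 fold changes of 3.97 ± 0.63 and 3.82 ± 0.59. The others called were Tkt, Agpat2, Acly, Aacs, Acaca, G6pdx, Pnpla3 and Dgat1, at 3.15 to 1.14.

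The log2 fold changes of synthesis genes were smaller when the limb of male 13 was left out. Without it the log2 fold change of Fasn was 2.76, of Scd1 2.99, of Pck1 4.81, of Thrsp 2.36, of Slc25a1 2.29, of Agpat2 1.68, of Aacs 1.51, of Tkt 1.44, of Pnpla3 1.29 and of Acly 1.25. Acly (edgeR adjusted p = 0.164), Acaca (0.225), G6pdx (0.0997) and Dgat1 (0.114) no longer passed, while Fasn and Scd1 passed without it. Plin1, Cidec and Cfd were at 4.85, 4.50 and 3.94 without that limb.

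Of the genes of lipid uptake, all 12 listed were tested, 3 were higher and 0 lower, and the median was 0.14. Fabp4, the fatty acid carrier of adipocytes and of capillary endothelium, ran from 211 through 384 to 2172 CPM in rich limbs and from 68.8 through 123 to 206 CPM in poor limbs without overlap (2.11 ± 0.29). Apoe, a lipoprotein component, had medians of 129 and 67.4 CPM (1.23 ± 0.23). Fabp5, a further fatty acid carrier, had 6.54 and 2.51 CPM (1.85 ± 0.46) and did not pass without male 13 (edgeR adjusted p = 0.31). Lpl, lipoprotein lipase, had medians of 820 and 746 CPM, and Cd36, a fatty acid transporter, 374 and 327 CPM; neither passed, and their limbs overlapped widely.

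Of 16 transcription factors of adipocytes, 14 were tested and 2 were higher, with a median of 0.03. Cebpa, the gene of C/EBPα, ran from 9.44 through 21.7 to 191 CPM in rich limbs and from 2.20 through 4.37 to 7.35 CPM in poor limbs without overlap (3.40 ± 0.45; 2.54 without male 13). Pparg, the gene of PPARγ, ran from 3.82 through 5.87 to 59.1 CPM and from 1.06 through 3.04 to 7.15 CPM, and 5 of 12 rich limbs exceeded every poor one (1.98 ± 0.42). Without male 13 Pparg had a log2 fold change of 1.23 and did not pass (edgeR adjusted p = 0.118). Cebpb, Nr1h3 and Klf15, regulators that many tissues share, did not pass, with rich and poor medians of 94.7 and 102, 16.7 and 16.7, and 36.3 and 50.0 CPM.

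Of 28 other genes of white adipocytes, 15 were tested and 5 were higher, with a median of 0.31. They were Cyp2e1, a cytochrome P450 (4.27 ± 0.50, without overlap), Tusc5, which takes part in moving the glucose transporter to the cell surface (3.60 ± 0.52, and 2.50 without male 13), Acp5, an acid phosphatase (2.57 ± 0.45, and 3.27 without the poor limb of female 23), Aoc3, an amine oxidase of fat cells and smooth muscle (2.21 ± 0.32), and Sncg, a synuclein (1.89 ± 0.37). Slc2a4, the insulin-responsive glucose transporter of both muscle and fat, did not pass by edgeR and was called by DESeq2: its medians were 494 CPM in rich and 599 CPM in poor limbs, and its log2 fold change was -0.32 ± 0.08. Acvr1c, an activin receptor of white fat too low to be tested, was at 0 in 9 of 12 poor limbs and between 0.655 and 15.6 CPM in the rich ones.

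**Figure D2:**
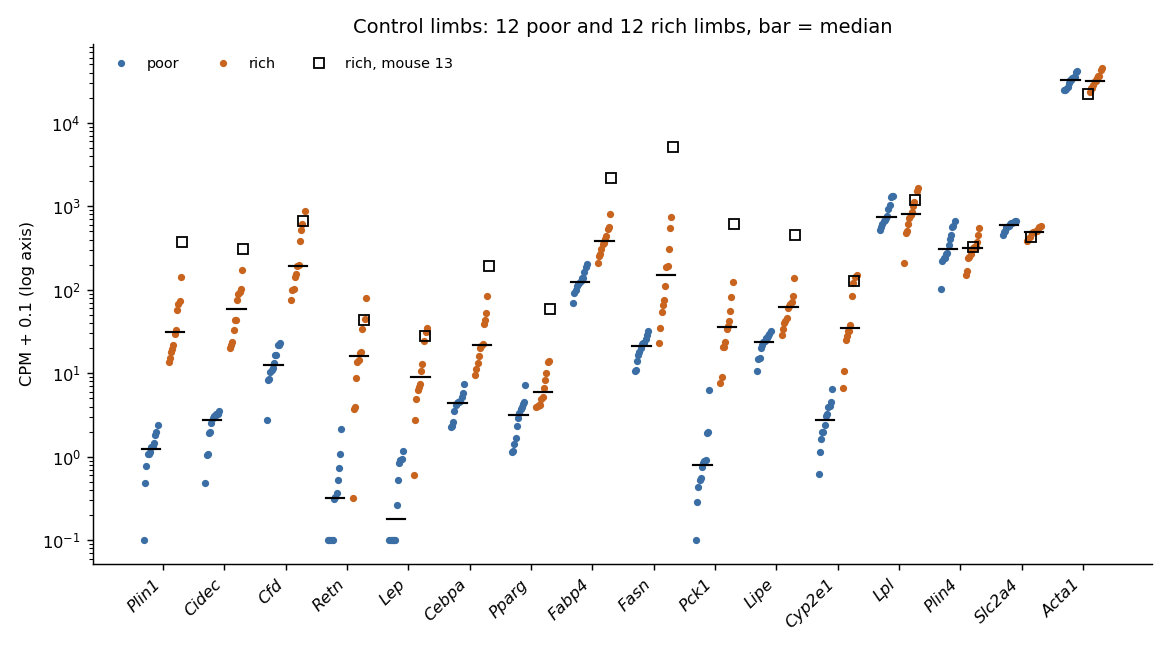
Levels of 16 genes in the 12 poor (blue) and 12 rich (orange) control limbs, as CPM plus 0.1 on a log axis; each point is a limb, the bar is the median and the open square is male 13. Plin1, Cidec and Cebpa do not overlap between the classes. In 13 of the 10555 genes tested (0.123%) every rich limb lay above every poor limb. Other genes of the adipocyte lists, such as Pparg, Fasn, Lipe, Lpl, Plin4 and Slc2a4, overlap, as does Acta1.

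Genes of brown adipocytes, which burn fat to make heat, were high in single limbs. Ucp1, the uncoupling protein that defines these cells, was at 1179 CPM in the rich limb of male 13, at 32.7 and 28.8 CPM in the rich limbs of mice 9 and 32 and at most 7.04 CPM in the other 9 rich limbs. It was at 0 in 8 of 12 poor limbs, whose highest value was 0.908 CPM. Male 13 also held the highest values of Cidea (351 CPM), Elovl3 (74.5 CPM), Kcnk3 (64.7 CPM) and Otop1 (50.4 CPM), all known from brown fat. Zic1, a marker of classical brown fat, was at 0.214 CPM in that limb and reached 3.96 CPM in the rich and 5.37 CPM in the poor class. Of 20 brown adipocyte genes 8 were tested, and the median was -0.15. By edgeR 0 of the 8 passed, 0 reached p = 0.05 or less before adjustment, and 0 passed by DESeq2 or limma voom. Without the 3 rich limbs whose Ucp1 exceeded 10 CPM, 41 genes were called between the classes, all higher, and 39 of them were among the 112; of the 32 adipocyte genes, 21 were still called.

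Outside the adipocyte lists, 70 genes were higher in rich limbs, with log2 fold changes of 0.29 to 4.19 and a median of 1.06. The largest were Cdo1, which oxidises cysteine (4.19 ± 0.54, edgeR adjusted p = 5.21e-05; 3.16 without male 13), Hp, the haemoglobin-binding protein haptoglobin (4.18 ± 0.49, 1.5e-05), and Pygl, a glycogen phosphorylase known from liver (4.13 ± 0.73, 0.00222; 2.26 without male 13). Hp ran from 6.05 through 22.7 to 143 CPM in rich limbs and from 0.258 through 1.88 to 3.93 CPM in poor limbs without overlap. Ifi27l2a, an interferon-induced gene, did not overlap either, with medians of 28.9 and 2.52 CPM (3.72 ± 0.48, edgeR adjusted p = 5.21e-05).

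Complement genes were the other group with several calls. Of 13 listed, 12 were tested and 3 were higher, among them Cfd, and the median was 0.74. C4b, a component of the classical pathway, ran from 9.17 through 32.4 to 131 CPM in rich limbs and from 2.11 through 5.27 to 10.9 CPM in poor limbs, and 10 of 12 rich limbs exceeded every poor one (2.78 ± 0.37, edgeR adjusted p = 7.97e-05). Cfb, which forms the alternative pathway's convertase together with C3, had medians of 10.5 and 3.43 CPM (1.54 ± 0.36, 0.0327), and it did not pass without male 13 or without any 1 of 8 other limbs. C3 itself had medians of 77.4 and 28.0 CPM and did not pass by edgeR (1.61 ± 0.42, 0.0619), while DESeq2 called it.

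Markers of the other cells that lie near adipocytes had few calls. Before adjustment, 8 of 20 tested progenitor genes and 1 of 16 endothelial genes reached p = 0.05 or less by edgeR, against 12.9% of all genes. The log2 fold change was positive in 17 of 20 progenitor, 11 of 16 endothelial, 11 of 11 macrophage and 16 of 20 matrix genes, against 51.1% of all genes. Mme, a surface peptidase of fibro-adipogenic progenitors and of fat precursors, was the 1 gene called of 20 tested progenitor genes (24 listed, median 0.30), with medians of 8.18 and 4.25 CPM (1.46 ± 0.31, edgeR adjusted p = 0.0139). It did not pass without male 13. Pdgfra, the receptor that marks the progenitors, did not pass, with 23.5 and 20.1 CPM. Cldn5, a tight junction protein of capillaries, was the 1 call among 16 genes of blood endothelium (median 0.10), at 12.6 and 7.71 CPM (0.97 ± 0.22, edgeR adjusted p = 0.0305; 0.155 without male 13), and it also did not pass without female 5, 8, 23 or 24 or male 36. Of 18 macrophage genes 11 were tested and 0 passed by edgeR, DESeq2 or limma voom, with a median of 0.64, while 5 reached p = 0.05 or less before adjustment by edgeR. Their summed level ran from 59.6 through 152 to 231 CPM in rich limbs and from 22.1 through 95.9 to 188 CPM in poor limbs. All 20 genes of fibrillar and adipose matrix were tested and 0 passed by any of these tools. Their median was 0.32, and 7 were at p = 0.05 or less before adjustment by edgeR. Col3a1, a fibrillar collagen, had medians of 271 and 120 CPM. The summed level of the matrix genes ran from 1201 through 2342 to 5121 CPM in rich limbs. In poor limbs it ran from 801 through 2345 to 9145 CPM. The part that these cells played in the differences of single genes was not tested.

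Single limbs stood out in markers of skin and of B cells. Krt5, a keratin of skin, was at 24.5 CPM in the rich limb of female 24, at most 1.17 CPM in the other rich limbs and at 0 in 12 of 12 poor limbs. The B-cell gene Cd79a was at 40.6 CPM in the poor limb of female 23 and at most 0.732 CPM in the other poor limbs. Without that limb 110 genes were called, and all 32 adipocyte genes remained called. Summed over the lymphocyte list (21 T, B and NK cell genes, 2 tested), levels ran from 12.9 to 264 CPM in rich limbs and from 20.6 to 445 CPM in poor limbs. Genes of tendon and bone (12 listed, 9 tested) had a median of -0.68, 0 calls by edgeR, DESeq2 or limma voom and 3 genes at p = 0.05 or less before adjustment by edgeR, with summed levels of 216 to 997 CPM in rich and 227 to 2507 CPM in poor limbs.

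The lists of muscle fibre genes held no call. Acta1 ran from 22115 through 31569 to 45843 CPM in rich limbs and from 24782 through 32237 to 41465 CPM in poor limbs, and its log2 fold change of -0.10 ± 0.16 did not pass (edgeR adjusted p = 0.853) and turned positive in females alone, with the number blocks as a covariate and without the 3 limbs with Ucp1. All 16 fast fibre genes and all 12 slow fibre genes were tested, and their medians were -0.16 and -0.03. In either list 0 passed by edgeR, DESeq2 or limma voom, and 1 fast and 0 slow genes reached p = 0.05 or less before adjustment by edgeR. Myh1, the myosin of type IIX fibres, had medians of 2025 and 4032 CPM and did not pass (-0.75 ± 0.30, edgeR adjusted p = 0.274). The 13 mitochondrially encoded genes and 23 tested genes of fatty acid oxidation had medians of 0.12 and 0.00 with 0 calls by these tools, and 0 and 1 at p = 0.05 or less before adjustment. The 10 genes that were lower in rich limbs changed by small amounts, from -0.60 to -0.29. Trim54, a ubiquitin ligase of the sarcomere, ran from 203 through 252 to 311 CPM in rich and from 264 through 333 to 388 CPM in poor limbs, with overlap (-0.41 ± 0.08, edgeR adjusted p = 0.0114). With the number blocks as a further covariate Trim54 did not pass (-0.35, edgeR adjusted p = 0.0587), nor with the classes taken within each table (0.0833) or in either sex alone, and with the blocks 4 genes in all were lower. Pdk2, a kinase that restrains the entry of pyruvate into the citric acid cycle, ran from 389 through 521 to 633 CPM and from 535 through 654 to 705 CPM (-0.36 ± 0.08, 0.0277), and it did not pass without male 13 (0.069), male 11 or male 39. The others were Ccbl1, Lyar, Gps2, Nol11, Abcf3, Ccdc97, Ddx23 and Hdgfrp2, of which Gps2, Nol11, Abcf3, Ddx23 and Hdgfrp2 did not pass without male 13, and these 5 and Lyar each lost the call without any 1 of 11 to 17 other limbs.

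**Figure D3:**
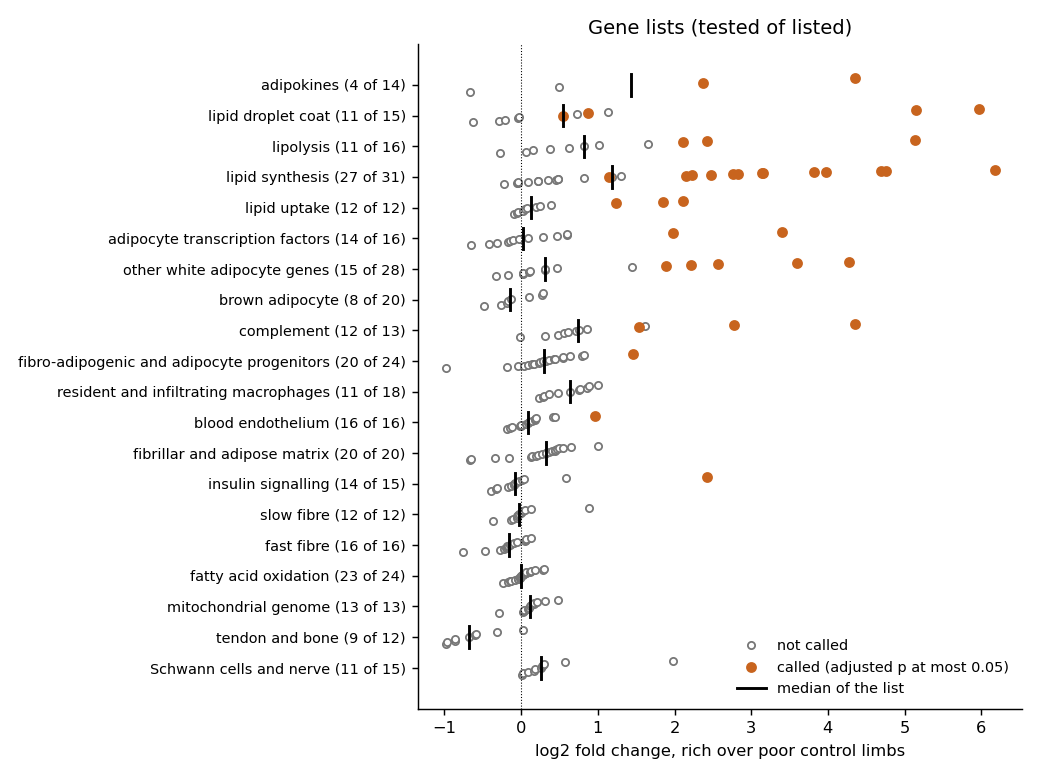
Log2 fold change of rich over poor control limbs for the tested genes of 20 lists; filled points passed at an adjusted p of at most 0.05, open points did not, and the black bar is the list's median. Among the genes drawn, most calls sit in the adipocyte lists and complement, and the fibre lists hold none. Of the 102 genes higher in rich limbs, 65 were in no list and are not drawn.

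The difference between the classes was also compared between the sexes. Of 10555 genes 0 (0%) passed for a difference in the rich-poor contrast between females and males by edgeR and 0 by limma voom, while 647 (6.13%) reached p = 0.05 or less before adjustment by edgeR. The smallest p belonged to Cetn3, Prpf38b, Msn, Fam213b, Gatm and Mtpn, each at an adjusted p of 0.793. Within females alone (7 rich, 4 poor limbs) 5 genes passed and within males alone (5 rich, 8 poor) 65 passed, 58 higher and 7 lower, which does not show a difference between the sexes. In females the log2 fold changes of Plin1, Cidec and Cfd were 5.74, 4.77 and 4.41, and in males 6.06, 5.41 and 4.29.

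The 22 control limbs between the classes gave a test on libraries that were in neither class. Their Adipoq ran from 4.08 to 22.3 CPM, and each gene was fitted against log2 of Adipoq CPM plus 1. Of 10790 genes 3 passed (0.0278%), all with a positive slope: Cfd at 0.87 ± 0.09, Cidec at 0.87 ± 0.10 and Plin1 at 0.92 ± 0.16 log2 units per log2 unit of Adipoq (SE, edgeR adjusted p = 2.03e-05, 7.71e-05 and 0.0194). Of the 102 genes higher in the rich class 100 were tested here, and 84 had a positive slope, against 48.4% of all genes. A p of at most 0.05 without adjustment was reached by 23 of the 100, against 3.17% of all genes. Of the 10 lower genes 5 had a negative slope, which is no more than the background. The genes are not independent of each other, since they vary together from limb to limb. All 12 slow fibre genes had negative slopes, with a median of -0.66; 0 passed by edgeR or limma voom, and 2 reached p = 0.05 or less before adjustment by edgeR.

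The immobilized limbs of the same mice asked whether a mouse with a rich control limb also had a rich limb in the cast. No such match was detected. Adipoq in the immobilized limb ran from 0.618 through 9.25 to 485 CPM in the mice of the rich class and from 0 through 8.83 to 331 CPM in those of the poor class, so the ranges overlapped almost wholly. The difference in mean log2(CPM + 1), rich minus poor, was -0.207 and did not pass a permutation test within the tables (two-sided p = 0.843). Plin1 had medians of 5.20 and 4.15 CPM and Cidec 8.16 and 6.61 CPM in the immobilized limbs of rich-class and poor-class mice. Of the 102 genes higher in rich control limbs, 101 were tested here and 19 had a positive log2 fold change, against 48.3% of all genes. Of 10810 genes 0 (0%) passed by edgeR, while 555 (5.13%) reached p = 0.05 or less before adjustment, and 1 passed by DESeq2 and 0 by limma voom. The edgeR log2 fold change of Adipoq was -1.64 ± 1.42 (adjusted p = 0.894), with an error nearly as large as the difference.

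Single mice showed how far the limbs parted. Male 31 had the lowest Adipoq of all control limbs, 0.191 CPM, and 331 CPM in its immobilized limb. Male 13, with the highest control value of 210 CPM, had 3.90 CPM in its immobilized limb, and female 24, next with 174 CPM, had 2.70 CPM. Female 47 was high in both, with 120 and 485 CPM. An immobilized limb at or above the lowest rich level of 23.1 CPM was found in 3 of 12 rich-class mice, 5 of 12 poor-class mice and 5 of 22 mice between. Adipoq was lower in the immobilized than in the control limb in 10 of 12 rich-class mice and higher in 10 of 12 poor-class mice; since the control value set the class, this is a description of the ranking. Over the 46 mice, log2 Adipoq of the limbs correlated with Pearson's r = -0.012 (permutation p = 0.934) and Spearman's rho = -0.0013 (permutation p = 0.994). Leaving out the mice farthest from the median, 13 and 24, gave r = 0.0747, and leaving out mice 15 and 16 gave -0.0176. Within the tables r was -0.0365 in 21 females and -0.184 in 25 males, and within animal numbers 1 to 20, 21 to 40 and 41 to 59 it was 0.170, -0.432 and 0.391. None of these 11 values passed (lowest Benjamini-Hochberg adjusted p = 0.975 for r).

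**Figure D4:**
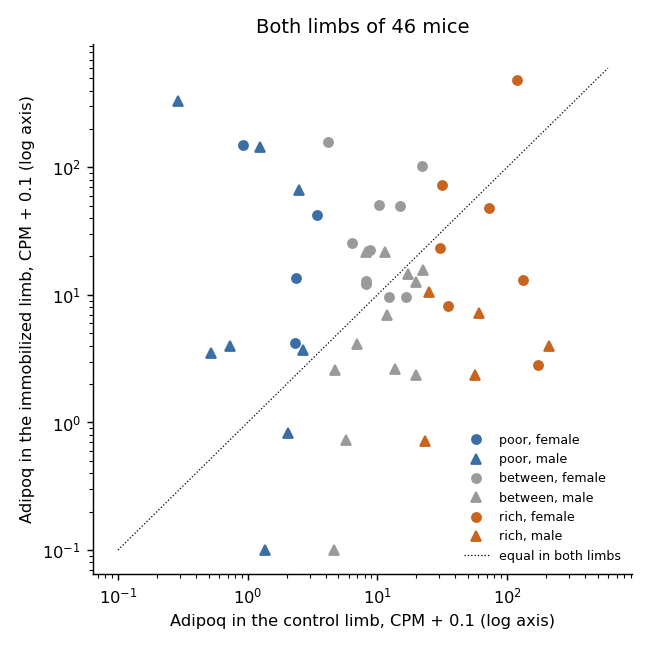
Adipoq in the control limb (horizontal) and the immobilized limb (vertical) of 46 mice, as CPM plus 0.1 on log axes; colours give the class of the control limb, circles females and triangles males, and the dotted line marks equal levels. Pearson's r over the points is -0.012, with poor-class mice reaching 331 CPM and rich-class mice 485 CPM in the immobilized limb.

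Most of the genes higher in rich control limbs also varied with Adipoq among the immobilized limbs. This comparison was added after the data had been seen: each gene was fitted against log2 of Adipoq CPM plus 1 in the 46 immobilized limbs, which had no part in the ranking. Of 11149 genes 2127 passed (19.1%), 1380 with a positive slope (12.4%) and 747 with a negative one (6.70%), and the median slope was -0.005. All 102 genes higher in rich control limbs had a positive slope, against 46.6% of all genes, and 95 of them passed. All 10 lower genes had a negative slope, and 3 of them passed, Trim54 among them with -0.06 ± 0.02 (edgeR adjusted p = 0.0466). The slopes of Cidec, Cfd, Retn and Plin1 were 1.03 ± 0.03, 1.03 ± 0.04, 1.00 ± 0.04 and 0.97 ± 0.04, close to a constant ratio to Adipoq. Cebpa had a slope of 0.55 ± 0.05, Fasn 0.52 ± 0.06 and Pparg 0.38 (edgeR adjusted p = 2.71e-11, 6.72e-09 and 2.32e-09).

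Other lists had many calls in the immobilized limbs. All 15 tested macrophage genes of 18 listed passed with a positive slope (median 0.41), as did 12 of 13 complement genes (median 0.41), 16 of 20 matrix genes (median 0.20) and 13 of 20 tested progenitor genes (median 0.14). Mrc1, the mannose receptor of resident macrophages, had a slope of 0.34 (edgeR adjusted p = 0.000183), and its medians in the rich and poor control limbs, where it did not pass, were 15.2 and 6.20 CPM. Of 16 fast fibre genes 6 passed with a negative slope (median -0.07), such as Atp2a1, the calcium pump of fast fibres, at -0.09 (0.0213). Of 12 slow fibre genes 3 passed, also with a negative slope (median -0.21). Among all genes 6.70% passed with a negative slope. By limma voom 7 fast and 7 slow fibre genes passed. The number of limbs differed between the fits, 46 here and 24 between the classes, and whether the lists differ between control and immobilized limbs was not tested.

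**Figure D5:**
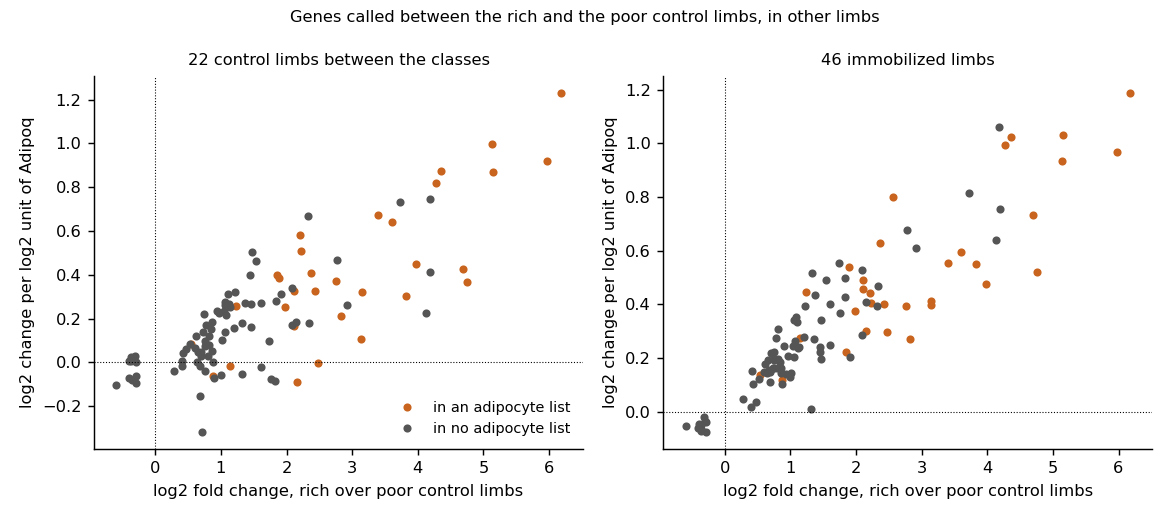
For the genes called between the classes, the log2 fold change of rich over poor control limbs (horizontal) against the slope on log2 Adipoq (vertical) in the 22 control limbs between the classes (left) and in 46 immobilized limbs (right). Of the 102 higher genes 84 of 100 tested have a positive slope at left and 102 at right.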

How the data were processed

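Libraries were stranded and made from total RNA after removal of ribosomal RNA, per the labels' protocols. The authors deposited raw read counts per gene symbol, whole numbers in a female and a male table with 32544 symbols, 0 of them unnamed. Aligner, counter and genome build: not given in the sources used here. Reads carried no molecular identifiers, so errors of single values cover counting only in part. No 2 of the 48 libraries of these mice held identical counts, and the lowest chi-square per degree of freedom between a pair was 6.22. Groups came from the labels, and each library is 1 limb of 1 mouse.

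The ranking, the classes and the gene lists were chosen with earlier results of these data known, so no list is independent evidence. CPM was the count over the library total times 1000000. Genes passing edgeR's filter were fitted by the quasi-likelihood method (edgeR 4.0.16, R 4.3.3, TMM) with the table as a covariate, with Benjamini-Hochberg adjusted p of at most 0.05 counted as passing. Errors of log2 fold changes are standard errors from the quasi-likelihood F. Permutation tests used 100000 resamples.

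Named are Adipoq, Plin1 and Acta1, the 12 genes with the largest and the 12 with the lowest log2 fold change among calls with an average log2 CPM of at least 1, members of 8 adipocyte lists, up to 5 genes of any other list with the smallest p, the 10 genes most like Adipoq and 6 genes of the comparison between the sexes. Pdgfra, Krt5, Cd79a and the single limbs named were chosen after their values were seen. Promoters are from RefSeq (GRCm38.p6).

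On simulated data with known changes in 200 genes, the fit between control classes recovered 44% of 1.5-fold, 88% of 2-fold and 98% of 4-fold changes with 5 genes called in error. The fit for a difference between the sexes recovered 8%, 28% and 80% of such changes, with 1 gene called in error. The fit between the immobilized limbs recovered 34%, 82% and 100%, with 7 called in error. Alternatives were other normalizations and filters, DESeq2 1.42.0, limma 3.58.1 voom, other covariates, class sizes and rankings, and each limb left out. The alternatives without limbs with Ucp1 or Cd79a above 10 CPM, without mice 15 and 16, within numbers 1 to 20, and the fit over 46 immobilized limbs were added after seeing the data.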

Additional observations from a re-analysis of the deposited data

Results flagged for a closer look

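In groups of 4 to 8 limbs of 1 sex and class, 21 were checked for a limb far from the others. The limit used is set so that chance flags about 1 in 20 such groups. That rate does not carry over here, because Krt5, Cd79a and the single limbs named were chosen after their values were seen. Several flags also share a limb and genes that vary together. Male 13 was the highest of 5 rich male limbs in 6 genes, with 372.4 CPM of Plin1 (next limb 33.23), 308.3 of Cidec (75.86), 665.8 of Cfd (191.5), 9756 of Scd1 (417.3), 1179 of Ucp1 (28.84) and 351.5 of Cidea (20.6). Among 7 rich female limbs, female 9 stood apart in Ucp1 at 32.68 CPM (next 7.043) and female 24 in Krt5 at 24.47 CPM (next 1.174). Among 4 poor female limbs, female 46 was lowest in Cfd at 10.88 CPM (next 21.56) and female 23 was highest in Cd79a at 40.62 CPM (next 0.2721). Among 8 poor male limbs, male 54 was highest in Scd1 at 68.28 CPM (next 35.14).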

How the results depend on the processing

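Against 112 genes called between the control classes, 215 were called with no filter on counts, 209 with a mean of at least 1 CPM, 209 by DESeq2 (158 higher, 51 lower, 75.6% higher against 91.1%), 50 by limma voom, 71 with Acta1 as a covariate, 2430 with all 56 mice ranked (2004 higher, 426 lower), 5 in females alone, 65 in males alone, 41 without the 3 limbs with Ucp1 and 23 in animal numbers 1 to 20 alone. Leaving out each limb gave 58 (without male 13) to 143. Splits by scaling were 86.1% higher with median-of-ratios factors and 84.7% without the covariate. Of 67 named genes followed, Plin1, Cidec and Cfd were called under every alternative in which they were tested, and no followed gene called in the main fit changed direction. Acta1, never called there, turned positive with the number blocks as a covariate (0.0343), in females alone (0.2672) and without the 3 limbs with Ucp1 (0.0538).

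In the immobilized limbs 1 gene was called by DESeq2 and 1 with 23 limbs per class. Plin1 turned positive there by limma voom (0.1007), without the covariate (0.3153) and in females alone (1.1641), as did Adipoq in females alone (0.8648). The difference in Adipoq of the immobilized limbs turned positive with a pseudocount of 0.1 (0.0262) and with all 56 mice ranked (0.3727). Between the same classes, ranked by Adipoq, the difference in Plin1 was positive (0.1567). Leaving out each limb gave -0.6736 to 0.1918 for Adipoq. The correlation of the limbs was positive over 56 mice (0.0069), for Plin1 (0.0197), without mice 13 and 24 (0.0747) and in animal numbers 1 to 20 (0.1696) and 41 to 59 (0.3913). The cause of these moves was not tested. No paired analysis was possible because the rich and poor limbs come from different mice and share no animal number.

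Limits: at these depths a gene under about 1 CPM rests on a few reads. The classes differ in size by sex and by number block, and with both as covariates 79 genes were called.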
